A study of Mus musculus with 75 samples.

Results

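The levels of Atoh1 and Ikzf2, the 2 transcription factors switched on together in adult mouse cochlear supporting cells (SCs), were followed cell by cell and set beside the hair cell (HC) and SC genes of the same cells. Both genes were read by their symbols, 2 of the 55291 genes in the count table, in all 75 cells, and the relations between levels were taken over the 42 induced cells. The induced cells carried Slc26a5 DTR/+ and Rosa26 CAG-LSL-Ikzf2/+ together with Fgfr3-iCreER+ and CAG-LSL-Atoh1+. Tamoxifen was given at P30 and P31, diphtheria toxin at 20 ng/g at P36 to kill the endogenous outer hair cells (OHCs), and the cells were collected at P60. The labels give 3 classes of induced cells: 11 OHC-like cells, 16 nascent HCs and, as the last, 15 SCs failing to become HCs. Where 3 values are given for the induced classes, they stand in this order. The study set them apart by Myo7a and Slc26a5 (prestin), so the levels of those genes follow from the labels. The reference cells were 17 WT_P30 OHCs, from Slc26a5 CreER/+; Ai9/+ mice given tamoxifen at P20 and P21, and 16 WT_P60 SCs, from Fgfr3-iCreER+; Ai9/+ mice given tamoxifen at P30 and P31. All cells were picked by hand for red Tdtomato fluorescence. Fgfr3-iCreER acts mainly in pillar and Deiters' cells, so the induced cells and the WT_P60 SCs started from those SC types. The wild-type OHCs were 30 days old, not 60, and had neither the Atoh1 and Ikzf2 transgenes nor OHC loss.

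Atoh1 is a basic helix-loop-helix (bHLH) activator that pairs with E proteins, binds E-box sequences and starts HC fate in the embryonic cochlea. It is silenced again as HCs mature. Ikzf2 (helios) is a zinc finger factor of the Ikaros family that comes on late, in maturing OHCs, where it helps set the OHC programme and hold down inner hair cell genes. In the induced cells each factor came from its own transgene behind a strong ubiquitous promoter. The Atoh1 transgene carried the coding sequence with 2 HA tags. The Ikzf2 transgene sat at Rosa26 with 3 HA tags, a self-cleaving peptide and Tdtomato. The study's drawing of the targeting vector places a WPRE element (a stretch of virus origin set behind transgenes to stabilise the RNA) after Tdtomato. The 2 transgenes recombine independently, and fluorescence reports the Ikzf2 transgene alone.

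Atoh1 lies on chromosome 6 at 64729125-64731245, plus strand, in a single exon with 1053 coding bases before the stop codon (GRCm38, GENCODE annotation). Ikzf2 lies on chromosome 1 at 69531214-69687245, minus strand, and its principal transcript has 8 exons and 1578 coding bases before the stop codon. The following sequences are shown because the tags of the transgenes were joined at these ends of the coding sequences. The transgene sequences themselves were not used here, and a deposited count per gene does not separate transgene from endogenous transcripts. Both are the last 90 coding bases, 5′ to 3′ on the gene's strand, with the stop codon in capitals. The Atoh1 run covers chr6:64730289-64730378 and the Ikzf2 run chr1:69538768-69538857, which lies in the last exon on the minus strand.
Atoh1 coding end: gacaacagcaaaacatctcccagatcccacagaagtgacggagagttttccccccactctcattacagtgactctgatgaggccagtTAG
Ikzf2 coding end: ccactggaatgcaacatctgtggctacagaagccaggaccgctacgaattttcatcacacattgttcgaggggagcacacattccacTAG
The forward genotyping primer of the Atoh1 transgene lies within the coding sequence and matches the endogenous coding sequence exactly, once, at coding bases 617 to 636 (chr6:64729939-64729958).
Atoh1-F primer: acgctctgtcggagttgctg
The levels below are taken as sums of transgene and endogenous RNA. The Ikzf2 interval also overlaps 3 other annotated genes. The antisense gene Gm29114 held 2 counts in all over the 42 induced cells. Gm29112 and Gm28112, which lie in Ikzf2 introns on its own strand, held 1376 and 466 counts, each in 4 cells, with 1011 and 406 of them in a single cell.

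The libraries were full-length Smart-Seq libraries without molecular identifiers. Levels are counts per 1000000 counts (CPM), relative to the summed counts of all genes in a cell without the WPRE row, and log2 values are log2(CPM + 1). The summed counts ran from 4264780 to 22934062 in the induced cells, and genes at 1 CPM or more from 3348 to 9654. The labels name no mouse, so cells of a class cannot be counted as independent replicates. A class was therefore treated as a single sample, no test was run, and SDs describe the spread between cells. Each library also carries a provider's serial code in its label, and the leading letters and digits of these codes fall into 5 blocks among the induced cells, called library runs A to E here. The labels do not say what a block stands for. The short library numbers run on from one block to the next, except for a gap between runs D and E. Run C held 10 SCs failing to become HCs and 1 nascent HC, run B 5 OHC-like cells and 6 nascent HCs, and run D 3 and 4 of these. Run A held 1 OHC-like cell, 1 nascent HC and 4 SCs failing to become HCs, and run E 2, 4 and 1. Class and run overlap strongly and cannot be fully told apart. The genes that set the classes followed them: Slc26a5 reached 1 CPM in 11 of 11 OHC-like cells, 3 of 16 nascent HCs and none of the 15 cells of the last class, and Myo7a, an unconventional myosin of HCs, in 11, 16 and 3.

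All induced cells held far more Atoh1 RNA than any wild-type cell. In OHC-like cells Atoh1 ran from 769 CPM through a median of 4045 to 10260 CPM (mean 4894 ± 3193 SD, n = 11 cells). In nascent HCs it ran from 1392 through 4524 to 10412 CPM (4448 ± 2336 SD, n = 16). The widest range was that of SCs failing to become HCs, from 322 through 2456 to 32483.5 CPM (5545 ± 8157 SD, n = 15). The 3 ranges overlapped, and cells that had not become HCs held both the lowest and the highest value of the 42. In the highest cell, SC failing to become HC 6, Atoh1 took 3.25% of all gene counts, and in this cell and in SC failing to become HC 10 no other gene had more counts. Atoh1 was at 0 counts in 16 of 17 WT_P30 OHCs, and the remaining OHC had 159 counts (25.8 CPM). It was at 0 in 12 of 16 WT_P60 SCs, with a highest value of 5.78 CPM. A count of 0 in these wild-type libraries allows up to 0.622 CPM, for counting error only. The lowest induced cell was 12.5 times the highest WT_P30 OHC and 55.8 times the highest WT_P60 SC. Over summed counts Atoh1 was at 5356 CPM in OHC-like cells (95% exact Poisson interval 5343 to 5369, counting error only), 4747 CPM in nascent HCs and 5404 CPM in the class of SCs failing to become HCs.

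Ikzf2, by contrast, stayed mostly within the CPM range of wild-type OHCs. CPM is not corrected for transcript length here. The principal endogenous Ikzf2 transcript has 9278 exon bases, 1578 of them coding. Equal CPM from transgene and endogenous RNA thus need not mean equal numbers of molecules. OHC-like cells ran from 113 through a median of 400 to 831 CPM (348 ± 213 SD, n = 11). Nascent HCs ran from 44.8 through 276 to 651 CPM (299 ± 146 SD, n = 16). The SCs failing to become HCs ran from 138 through 520 to 2341 CPM (631 ± 598 SD, n = 15). The class that had not become HCs thus held the highest median and the 2 highest cells, at 2341 and 1721 CPM. WT_P30 OHCs ran from 32.9 through 140 to 566 CPM (n = 17), and all of them had counts, as mature OHCs express Ikzf2 themselves. WT_P60 SCs ran from 0 through 15.6 to 167 CPM (n = 16), with 3 cells at 0. Of the 42 induced cells, 35 lay at or below the highest WT_P30 OHC and 35 lay above the highest WT_P60 SC. The median of the OHC-like cells was 2.86 times that of the WT_P30 OHCs, that of the nascent HCs 1.97 times and that of the last class 3.71 times. Of the 7 induced cells above every WT_P30 OHC, 5 were SCs failing to become HCs, 1 was a nascent HC and 1 an OHC-like cell.

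**Figure D1:**
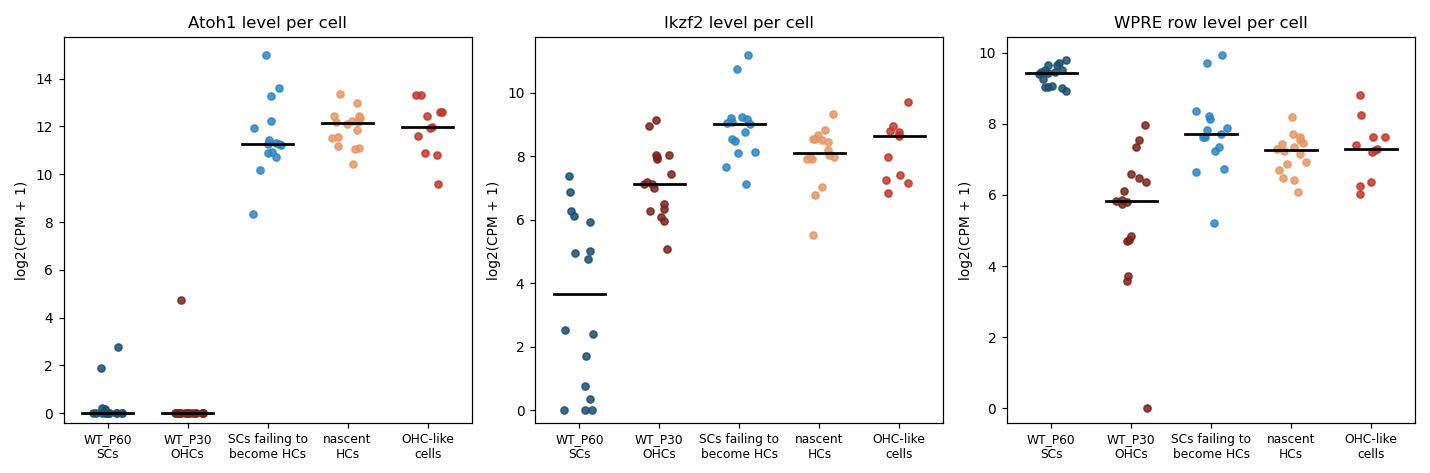
Level of Atoh1, Ikzf2 and the WPRE row in each of the 75 cells, as log2(CPM + 1) on the vertical axes. Each point is 1 cell, the black bars are class medians, and the sideways scatter within a class only separates points. Atoh1 in the 3 induced classes lies between 322 and 32483.5 CPM, above every wild-type cell, Ikzf2 in the induced classes overlaps the WT_P30 OHCs, and the WPRE row has its highest class median in WT_P60 SCs (692 CPM) and its highest cell among SCs failing to become HCs (976 CPM).

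Per coding length, Atoh1 exceeded Ikzf2 in all 42 induced cells. The level per coding kilobase was 2.42 to 185 times higher for Atoh1, with a median of 15.2 times. The median ratio was 16.7, 24 and 8.53 in the 3 classes, and their ranges overlapped. Ratios of 2.88 to 103 were seen among OHC-like cells alone. These ratios use the coding length, taken here as what the transgenes carry. Reads in untranslated parts of endogenous RNA would add to either gene. The Atoh1 exon has 2121 bases in all and the principal Ikzf2 transcript 9278.

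The mean levels of the classes differed by less than the spread between cells for both genes. On the log2(CPM + 1) scale Atoh1 averaged 11.91 ± 1.14 (SD), 11.94 ± 0.76 and 11.57 ± 1.55 in the 3 classes. OHC-like cells minus nascent HCs came to -0.03. The last class lay below OHC-like cells by 0.34 and below nascent HCs by 0.37, but with each run's mean taken off OHC-like cells minus the last class came to -0.16 and nascent HCs minus the last class to -0.12, the opposite direction. These Atoh1 differences were at most 0.31 of the SD between cells. Ikzf2 averaged 8.19 ± 0.92, 8.02 ± 0.92 and 8.90 ± 1.05. OHC-like cells minus nascent HCs was 0.18, or 0.19 of the SD between cells. OHC-like cells minus the last class was -0.71, or -0.71 SD, and nascent HCs minus the last class was -0.88, or -0.90 SD. The last is the widest gap between classes for either gene over the pooled cells, but it was -0.24 with each run's mean taken off, and 0.03, -0.52 and -0.72 within runs A, C and E. In the pooled cells 3 of the 16 nascent HCs lay below every SC failing to become HC. Within the runs that held both HC classes in number, OHC-like cells minus nascent HCs for Atoh1 was 0.02 in run B (5 and 6 cells) and 0.22 in run D (3 and 4 cells). It was -0.35 in run E (2 and 4 cells). For Ikzf2 the same difference was 0.85 in run B, 0.43 in run D and -1.35 in run E. Only runs A and E held OHC-like cells together with SCs failing to become HCs, with a single cell on at least 1 side, and there the Ikzf2 difference was 0.13 and -2.07. With each run's mean taken off, OHC-like cells minus the last class came to 0.0020 for Ikzf2. Runs B and D held no cell of the last class and run C no OHC-like cell. Taking off run means there also takes off class differences. The run-centred differences from the last class, for both genes, therefore cannot separate class from run.

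The WPRE row was set beside Ikzf2 because the drawing of the targeting vector puts this element at the end of the Ikzf2 transgene. Whether the Atoh1 transgene holds one as well is not given in the sources used here. WPRE ran from 64.5 through a median of 157 to 443 CPM in OHC-like cells. It ran from 66.4 through 153 to 288 CPM in nascent HCs and from 36.1 through 208 to 976 CPM in the last class. As for Ikzf2, SCs failing to become HCs 6 and 10 were the 2 highest cells. Ikzf2 and WPRE ranked the 42 cells alike, with a Spearman rho of 0.86 and a Pearson r of 0.87 on log2 values. The rank correlation was 0.93, 0.87 and 0.85 within the 3 classes, and 0.90 to 0.96 in runs B to E. In run A it was 0.26 over 6 cells. The median was 2.12 Ikzf2 counts for each WPRE count, with 39 of 42 cells above 1. In wild-type cells the WPRE row reads the Ai9 reporter instead, and WT_P60 SCs had a median of 692 CPM of WPRE with 0.022 Ikzf2 counts for each WPRE count. WT_P30 OHCs, which express Ikzf2 from their own gene, had a median of 2.64 over the 16 cells with WPRE counts, so the ratio alone does not tell transgene from endogenous RNA. Atoh1 did not follow WPRE, with a rho of 0.022 over the 42 cells.

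The levels of Atoh1 and Ikzf2 were close to unrelated across the induced cells. Spearman's rho was 0.016 and Pearson's r on log2 values 0.20 over 42 cells. The rank correlation was 0.18, -0.33 and 0.34 within the 3 classes. By run it was 0.77 in A, -0.39 in B, -0.0091 in C, 0.25 in D and 0.18 in E, so neither sign held throughout. Pearson's r rested on the cells at the ends: without the 2 farthest from the Atoh1 median, SCs failing to become HCs 4 and 6, r was -0.046 and rho -0.10. SC failing to become HC 6 was highest in Atoh1, Ikzf2 and WPRE alike (32483.5, 2341 and 976 CPM). Other cells parted the 2 factors. OHC-like cell 2 had 10260 CPM of Atoh1 with 150 CPM of Ikzf2, and nascent HC 8 had 5546 CPM of Atoh1 with 44.8 CPM of Ikzf2, the lowest of all. These and all later correlations describe cells whose 2 values come from the same library and share its total. What else cells of a run share is not given.

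**Figure D2:**
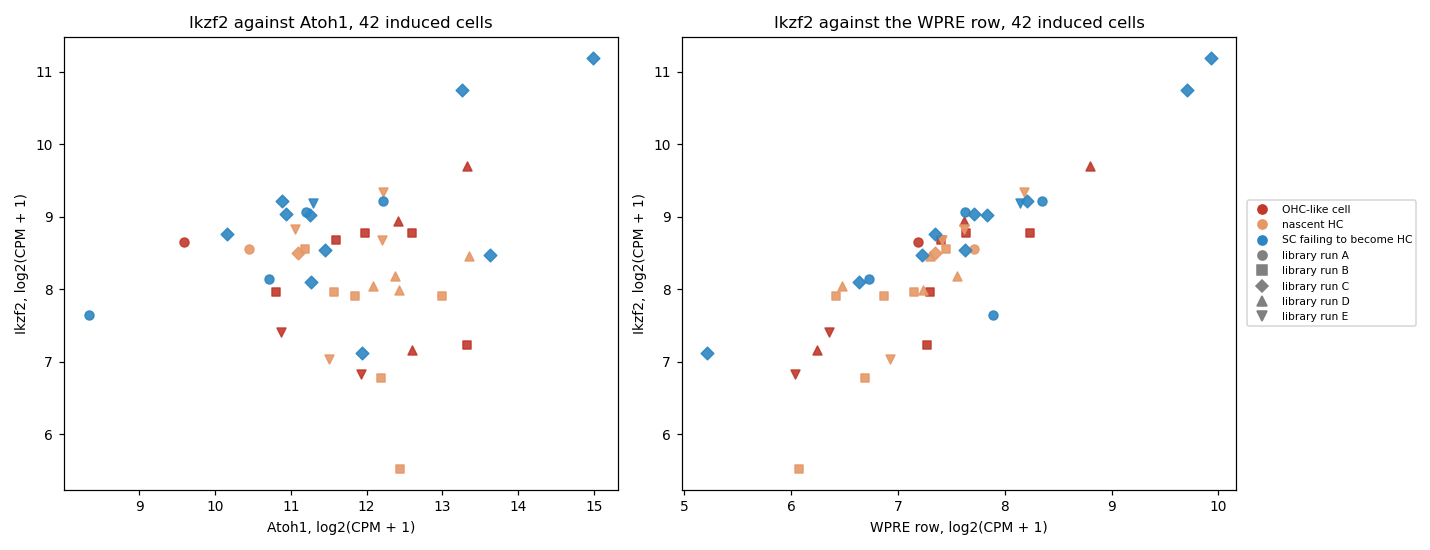
Ikzf2 against Atoh1 (left) and against the WPRE row (right) in the 42 induced cells, all axes in log2(CPM + 1). Colours give the class and symbols the library run. Ikzf2 shows no order along Atoh1 (rho 0.016) and runs along the WPRE row (rho 0.86), and the 2 cells at the upper right are SCs failing to become HCs 6 and 10.

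Over the 42 cells the HC programme ranked with the 2 factors with opposite signs, and the sign held within all classes for Ikzf2 but not for Atoh1. It was summarised as the mean log2(CPM + 1) of 23 general HC and OHC genes, with Myo7a and Slc26a5 left out because they set the classes. This level ran from 1.26 to 2.30 in WT_P60 SCs and from 7.92 to 10.06 in WT_P30 OHCs. OHC-like cells ran from 2.89 through a median of 5.09 to 7.81, nascent HCs from 2.35 through 4.11 to 7.16 and the last class from 1.30 through 2.31 to 2.84. No induced cell reached the lowest WT_P30 OHC. Atoh1 had a weak positive rho of 0.28 with this level over the 42 cells. Within the 3 classes rho was 0.13, 0.48 and -0.16. By run it was 0.39 in E, 0.25 in B, 0.029 in A, -0.25 in D and -0.55 in C, and it was -0.068 once each run's mean was taken off. The direction for Atoh1 thus depended on which cells were compared.

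Ikzf2 ranked cells opposite to the HC programme, with a rho of -0.52 and an r of -0.55. The sign was negative within all 3 classes, at -0.76, -0.47 and -0.22. It was also negative in 4 of 5 runs, at -0.68 in B, -0.43 in C, -0.71 in D and -0.57 in E, while run A had 0.26 over 6 cells. With each class's mean taken off rho was -0.56, and with class and run taken off together -0.56. The WPRE row gave -0.51 over the 42 cells and -0.68, -0.61 and -0.33 within the classes, and it was negative in all 5 runs (-0.14 in A). The cell with the most advanced HC level, OHC-like cell 11 at 7.81, had the lowest Ikzf2 of its class, 113 CPM. The next in HC level, nascent HC 2 at 7.16, went the other way, with 407 CPM of Ikzf2 against a class median of 276 CPM. OHC-like cell 7, with the highest Ikzf2 of its class at 831 CPM, had an HC level of 4.36.

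The number of genes detected moved with Ikzf2 as well, and its part in this relation was not tested beyond the following values. Ikzf2 had a rho of -0.48 with the number of genes at 1 CPM and WPRE of -0.58, while Atoh1 had -0.029. The HC level had a rho of 0.68 with the number of genes. Given the number of genes, the partial rank correlation with the HC level was -0.29 for Ikzf2, -0.20 for WPRE and 0.41 for Atoh1. With summed counts rho was -0.14 for Ikzf2 and 0.23 for Atoh1.

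SC genes ranked the other way round, less firmly for Ikzf2 but with a steadier sign for Atoh1. Their level is the mean log2(CPM + 1) of 17 SC genes, which ran from 5.33 to 7.00 in WT_P60 SCs and from 0.53 to 1.76 in WT_P30 OHCs. The medians of the 3 induced classes were 2.28, 2.78 and 4.73. Atoh1 had a rho of -0.41 with this level over the 42 cells, and -0.055, -0.60 and -0.32 within the classes. The sign was negative in 4 of 5 runs, from -0.036 in B and D to -0.64 in E, with 0.029 in A. Ikzf2 had a rho of 0.32, but 0.065 with each class's mean taken off and 0.0066 with each run's mean taken off. Within the classes the values for Ikzf2 were -0.082, 0.27 and -0.029, so the relation with SC genes lay mostly between classes and runs. The ratio of Atoh1 to Ikzf2, taken up after these values were seen, had a rho of 0.60 with the HC level and -0.56 with the SC level. Within the 3 classes the first was 0.56, 0.52 and 0.032 and the second -0.0091, -0.46 and -0.26. It repeats both members and is not a separate measurement.

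**Figure D3:**
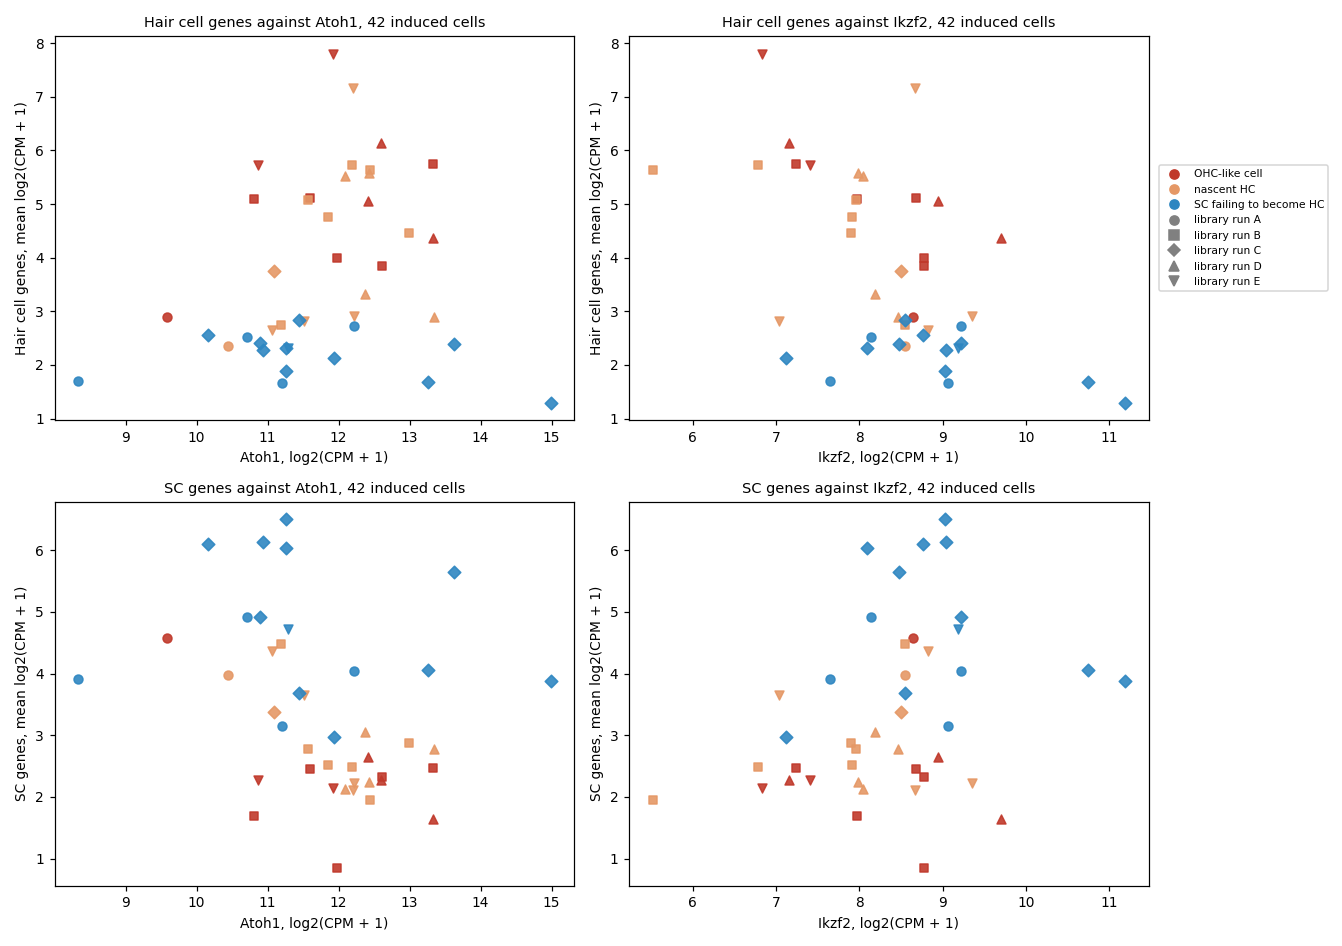
Mean log2(CPM + 1) of 23 HC genes (top) and 17 SC genes (bottom) against Atoh1 (left) and Ikzf2 (right) in the 42 induced cells. Colours give the class and symbols the library run. HC genes are lower at higher Ikzf2 (rho -0.52) and SC genes are lower at higher Atoh1 (rho -0.41), and no SC failing to become HC has an HC level above 2.84 at any Atoh1 level.

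**Figure D4:**
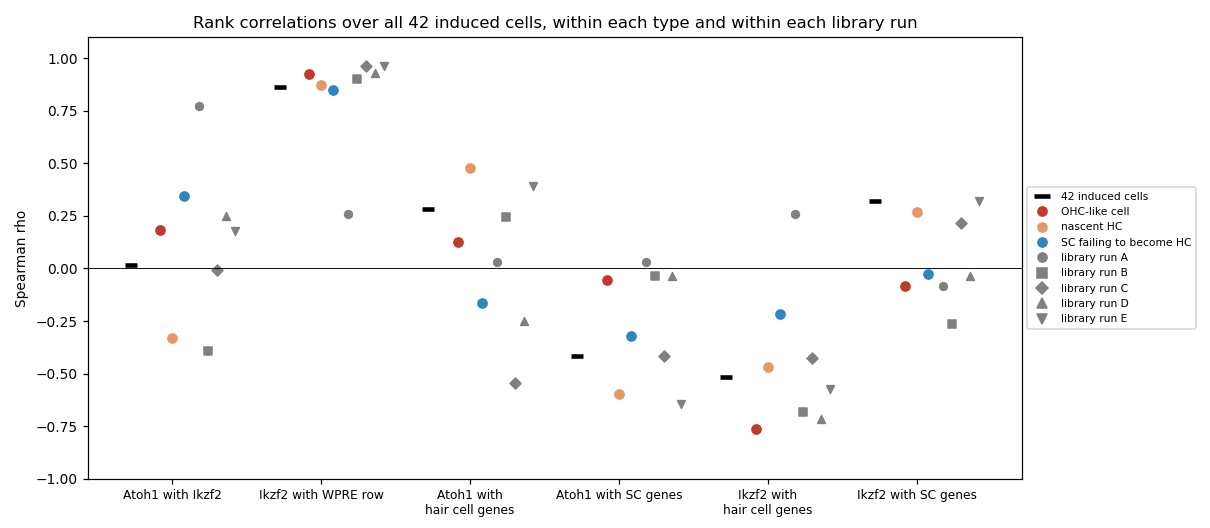
Spearman's rho for 6 relations, over all 42 induced cells (black bar), within each class (coloured points) and within each library run (grey symbols). The vertical axis runs from -1 to 1, and classes hold 11, 16 and 15 cells and runs 6 to 11. Ikzf2 with the WPRE row is positive throughout, Ikzf2 with HC genes is negative everywhere but in run A, and the other relations have values on both sides of 0.

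Each of the 10328 genes at 1 CPM or more in at least 10 induced cells was ranked against each factor. For Atoh1, 183 genes (1.77%) had a rho of 0.4 or higher and 315 (3.05%) of -0.4 or lower. For Ikzf2, 78 genes (0.755%) had a rho of 0.4 or higher and 476 (4.61%) of -0.4 or lower. With each class's mean taken off, the shares were 1.07% and 2.62% for Atoh1 and 0.223% and 1.98% for Ikzf2. The median rho over all genes was -0.0081 for Atoh1 and -0.078 for Ikzf2, against which the lists are read. The count of positive genes for Atoh1 was 295 without SC failing to become HC 6 and 298 without SC failing to become HC 9. That for Ikzf2 was 124 without OHC-like cell 7 and 121 without SC failing to become HC 7. Given the number of genes at 1 CPM, the negative genes for Ikzf2 numbered 80. Of the 183 genes positive with Atoh1, 16 (8.74%) were negative with Ikzf2, which is 3.36% of the Ikzf2 list, and none was positive with both. Among the 16 were Barhl1, Chga (chromogranin A), Chrna1 (a nicotinic receptor subunit), Cck (cholecystokinin) and Srrm4, a splicing regulator of neurons and HCs. The Gpx2 and Gpx2-ps1 entries among them are a gene and its pseudogene, between which reads can be split.

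The early HC factors and Notch ligands that lie near Atoh1 in HC development held 8 of 9 genes that passed the filter on low values. The filter asks for a level in enough induced cells, so genes found mainly in HCs passed through the HC classes. With Atoh1, 2 of 8 had a rho of 0.4 or higher (all genes tested: 1.77%), none of -0.4 or lower, and the median was 0.24. With Ikzf2, 4 of 8 had a rho of -0.4 or lower (all genes tested: 4.61%). All 8 were below 0, and the median was -0.39. With each class's mean taken off, none of the 8 had 0.4 or higher with Atoh1, and 2 had -0.4 or lower with Ikzf2. Given the number of genes at 1 CPM none of the 8 was at -0.4 or lower with Ikzf2. Barhl1, a homeobox factor needed for HC survival, had 0.43 with Atoh1 and -0.41 with Ikzf2. It ran from 0 through a median of 190 to 760 CPM in OHC-like cells, from 0 through 231 to 591 CPM in nascent HCs and from 0 through 0 to 146 CPM in the last class, where 4 of 15 cells reached 1 CPM. Within the 3 classes its rho with Atoh1 was 0.62, 0.19 and 0.67, and with Ikzf2 0.27, -0.57 and -0.06. Insm1, a zinc finger factor expressed in nascent OHCs, had 0.43 with Atoh1 and -0.37 with Ikzf2, and was at a median of 90.8 CPM in OHC-like cells, 83.5 CPM in nascent HCs and 0 in the last class. Neither gene kept 0.4 with Atoh1 when each class's mean was taken off (0.38 and 0.35). With each run's mean taken off the values were 0.23 for Barhl1 and 0.10 for Insm1, and with class and run off 0.32 and 0.16. Lhx3, a LIM homeobox factor of HCs, had 0.31 with Atoh1 and -0.55 with Ikzf2, and its values with Ikzf2 were -0.61, -0.46 and -0.40 within the classes. It reached 1 CPM in 9 of 11, 10 of 16 and 2 of 15 cells of these, so the last value rests mostly on cells near 0. Gfi1, a zinc finger repressor needed for OHC survival, had 0.26 and -0.52, and Rbm24, an RNA-binding protein of HCs, 0.22 and -0.48. Hes6, Jag2 and Dll1, an Atoh1-induced bHLH factor and a pair of Notch ligands, lay between -0.01 and 0.20 with Atoh1 and between -0.34 and -0.24 with Ikzf2. The remaining gene, Pou4f3, a POU factor that acts directly downstream of Atoh1 and keeps HCs alive, did not pass the filter. It reached 1 CPM in 1 of 11 OHC-like cells, 2 of 16 nascent HCs and none of the 15 cells in the last class. In WT_P30 OHCs it was found in 17 of 17, from 141 through 753 to 1296 CPM. Thus no more than 3 of the 27 induced cells in the HC classes reached 1 CPM of Pou4f3, while all of them had 769 CPM of Atoh1 or more.

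One of the promoters of Barhl1, the gene of this list with the highest rho with Atoh1, is shown because it holds the E-box CAGCTG, a core that bHLH factors bind. It covers 300 bases around the annotated start, at chr2:28916619-28916918 on the minus strand (RefSeq, GRCm38.p6), 5′ to 3′ on the gene's strand with the E-box in capitals.
Barhl1 promoter: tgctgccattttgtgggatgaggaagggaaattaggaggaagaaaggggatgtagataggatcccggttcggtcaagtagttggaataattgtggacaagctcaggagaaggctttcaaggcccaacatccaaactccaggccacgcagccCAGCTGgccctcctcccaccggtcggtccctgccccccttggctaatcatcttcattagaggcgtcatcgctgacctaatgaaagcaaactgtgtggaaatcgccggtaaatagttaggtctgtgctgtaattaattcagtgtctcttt
Both strands of each promoter were searched for CAGCTG, which reads the same on either strand, and for CAGATG, which reads CATCTG on the other. CAGCTG was in 16.3% of all 32851 promoters and in 14.6% of the 10241 promoters of the genes tested. It was in 32 of 180 promoters (17.8%) of the genes positive with Atoh1, of which 138 of 183 matched by symbol, and in 59 of 307 (19.2%) of the negative ones. CAGATG was in 10.5% of the promoters of tested genes, 11.7% of those of the positive genes and 10.7% of those of the negative genes. The shares in positive and negative genes were thus near each other. Of the same list, Hes6 held CAGCTG in each of its promoters, with a rho of 0.07 with Atoh1. Dll1 also held it, and Gfi1, Lhx3, Rbm24 and Jag2 did not. A match only says that these letters are in the window.

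General HC genes held 12 of 16 that passed the filter. With Atoh1 none of the 12 had a rho past 0.4 in either direction and the median was 0.22. With Ikzf2 5 of 12 had -0.4 or lower (all genes tested: 4.61%), 11 of 12 were below 0, and the median was -0.36. Myo7a, whose pooled value follows from the class labels, is among the 5, and without it 4 of 11 had -0.4 or lower and the median was -0.35. Lhfpl5, a subunit of the mechanotransduction channel, had -0.53 with Ikzf2 and -0.43, -0.42 and -0.50 within the classes. It ran from 0 through 1829 to 5242 CPM in OHC-like cells and from 0 through 854 to 4593 CPM in nascent HCs, and reached 1 CPM in 2 of 15 SCs failing to become HCs. Pvalb (parvalbumin, a calcium buffer) had -0.51 with Ikzf2 and 0.39 with Atoh1. Cdh23, a cadherin of the tip link, had -0.44 and 0.39. Calb1 (calbindin, a calcium buffer) had -0.44 with Ikzf2, -0.75 within OHC-like cells, and Myo7a -0.46. With each class's mean taken off, 1 of the 12, Calb1 at -0.52, stayed at or below -0.4 with Ikzf2, and given the number of genes at 1 CPM none did. Pcdh15 (0.03), Ush1c (-0.09) and Espn (-0.15) had the values nearest 0 with Ikzf2. Pcdh15 is a tip link cadherin, Ush1c a scaffold of the hair bundle and Espn an actin bundler, and Espn was found at 1 CPM in all 42 induced cells.

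OHC genes held 7 of 9 that passed the filter. With Atoh1 none passed 0.4 and the median was 0.25. With Ikzf2 2 of 7 had -0.4 or lower (all genes tested: 4.61%) and the median was -0.25. However, none of the 7 had -0.4 or lower with each class's mean taken off or given the number of genes. Without Slc26a5, which set the classes, 2 of 6 had -0.4 or lower. Chrna9, a subunit of the nicotinic receptor through which efferent nerves inhibit OHCs, had 0.37 with Atoh1 and -0.51 with Ikzf2. It ran from 0 through 592 to 1867 CPM in OHC-like cells and from 0 through 716 to 1947 CPM in nascent HCs, overlapping the WT_P30 OHCs (36.2 through 612 to 1103 CPM). Lbh, a transcriptional cofactor enriched in OHCs, had -0.49 with Ikzf2. Ocm (oncomodulin, the calcium buffer of OHCs) had 0.32 and -0.34 and reached 6576 CPM at most in induced cells, below the lowest WT_P30 OHC at 11585 CPM. Slc26a5, the motor protein prestin, had 0.14 with Atoh1 and -0.16 with Ikzf2 over the 42 cells. Within the OHC-like cells, the class in which all cells express it, the values were 0.11 and -0.39, over levels from 16.0 through 56.2 to 185 CPM. WT_P30 OHCs ran from 1015 through 1855 to 2694 CPM. Neither factor thus ranked prestin past 0.4 within that class. None of the 3 inner hair cell genes Slc17a8, Slc7a14 and Tbx2 passed the filter, and they reached 1 CPM in 1, 3 and 7 of the 42 cells.

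SC genes held 15 of 17 that passed the filter. With Atoh1 2 of 15 had -0.4 or lower (all genes tested: 3.05%), 11 of 15 were below 0 and the median was -0.17. With Ikzf2 3 of 15 had 0.4 or higher (all genes tested: 0.755%), 12 of 15 were above 0 and the median was 0.13. With each class's mean taken off these were 0 of 15, 8 of 15 and 0.0082, and given the number of genes at 1 CPM 1 of 15 had 0.4 or higher. Tuba1b, an alpha tubulin, had -0.52 with Atoh1 and 0.15 with Ikzf2. It was found at 1 CPM in 40 of 42 cells, and within classes its rho with Atoh1 was -0.58, -0.74 and -0.28. Bace2, a membrane protease, had -0.44 with Atoh1 and 0.46 with Ikzf2. In SCs failing to become HCs it ran from 0.646 through 518 to 3648 CPM, and it had a median of 0 in both HC classes. Gjb2, a gap junction protein of SCs, had 0.52 with Ikzf2 and 0.51, 0.45 and 0.45 within the classes. However, it was near 0 in OHC-like cells (0 through 0 to 2.17 CPM) and in nascent HCs (0 through 0.127 to 15.2 CPM). Of the nascent HCs, 3 of 16 reached 1 CPM. Sox9, an SC transcription factor, had 0.44 with Ikzf2. Fgfr3, the gene whose regulatory sequence drives the Cre, had 0.05 with Atoh1 and -0.29 with Ikzf2, and Sox2, an SC and progenitor factor that works upstream of Atoh1, -0.20 and 0.04.

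Atoh1's bHLH partners and repressors mostly showed little relation to it. All 12 passed the filter, 1 had a rho of -0.4 or lower with Atoh1, none was positive past 0.4, and the median was -0.030. The gene past the threshold was Heyl, a repressor of the Notch pathway, with -0.48 over the 42 cells and 0.20, -0.76 and -0.44 within the classes. Heyl was at medians of 282, 340 and 758 CPM in the 3 classes, and at 0 in all 16 WT_P60 SCs. The E proteins Tcf3, Tcf4 and Tcf12, with which Atoh1 pairs, had -0.29, -0.04 and 0.06. The Id proteins, which sequester E proteins, lay between -0.18 and 0.20 with Atoh1. Tcf4 had -0.42 with Ikzf2, the only member of the list past 0.4 there.

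The Ikaros family and its chromatin partners also moved little with Ikzf2. Of 11 genes 8 passed the filter, none of them passed 0.4 with either factor, and the medians were -0.024 with Atoh1 and -0.022 with Ikzf2. The highest with Ikzf2 was Rbbp4, a histone-binding subunit shared by deacetylase complexes, at 0.35. The relatives Ikzf1, Ikzf3 and Ikzf4 reached 1 CPM in 0, 1 and 2 of the 42 cells, so Ikzf2 and the low Ikzf5 were the family members detected in number.

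**Figure D5:**
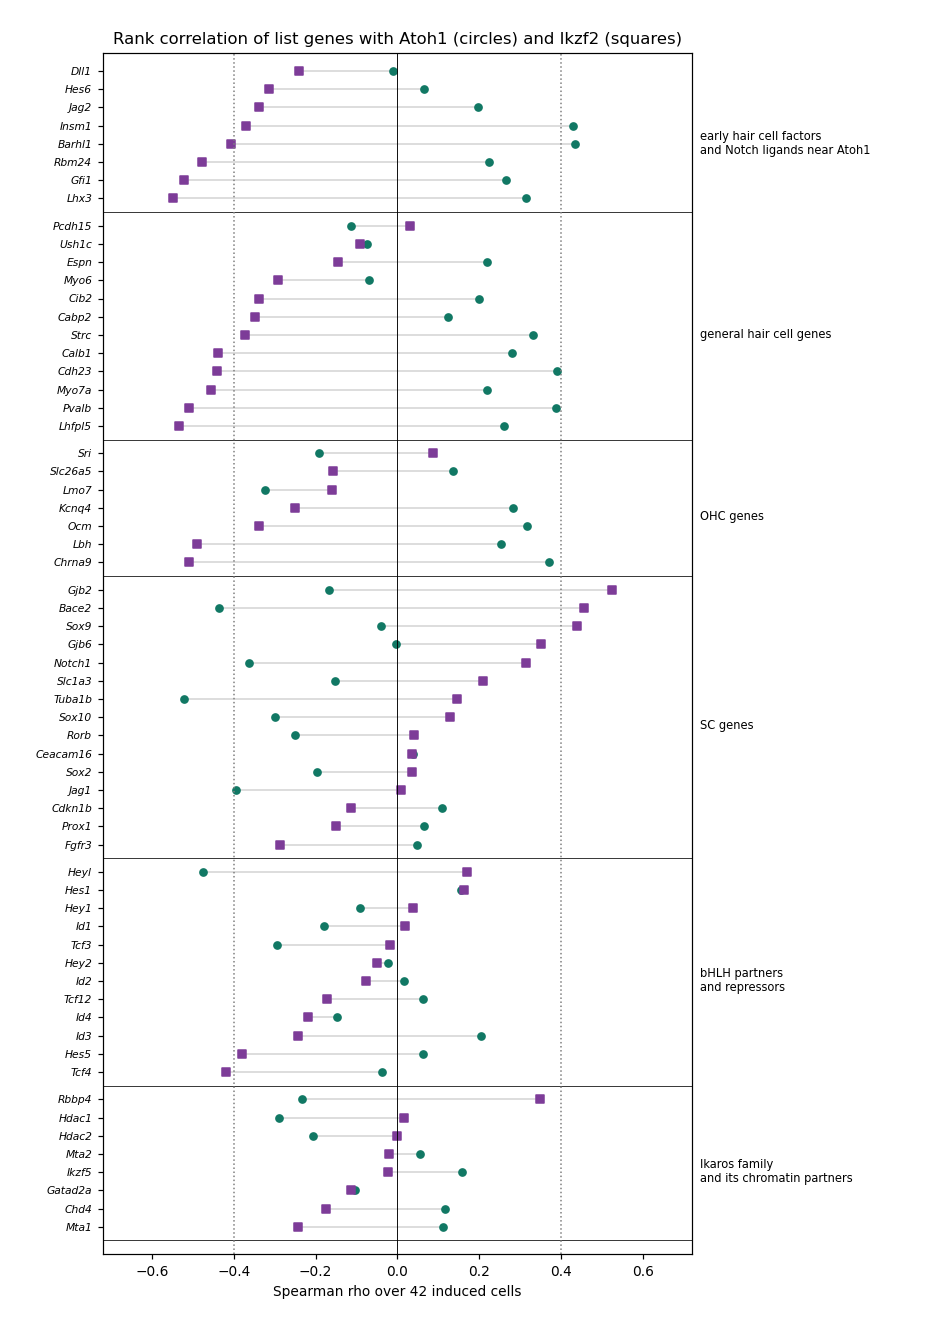
Spearman's rho over the 42 induced cells of each list gene that passed the filter with Atoh1 (green circles) and with Ikzf2 (purple squares), grouped by list and ordered by the value with Ikzf2. Dotted lines mark -0.4 and 0.4. In the early HC, general HC and OHC lists the squares lie mostly left of the circles, and in the SC list mostly right of them.

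The genes most like each factor in rank were few and mixed. Highest with Atoh1 were Kcnn2 (0.62), Bex2 (0.62), Fbxo9 (0.60), Arxes2 (0.59) and Cep63 (0.59). Kcnn2 encodes the small-conductance calcium-activated potassium channel that acts with the nicotinic receptor in OHCs. It ran from 0 through 6.57 to 56.2 CPM in OHC-like cells, from 0 through 1.66 to 99.8 CPM in nascent HCs and from 0 through 0 to 17.1 CPM in the last class, against 40.5 through 354 to 986 CPM in WT_P30 OHCs. Its rho with Atoh1 was 0.67, 0.40 and 0.58 within the 3 induced classes, and 0.58 with each class's mean taken off. Kcnn2 had -0.08 with Ikzf2. Arxes2 has a close copy, Arxes1, and its counts may be shared with it. Lowest with Atoh1 were Gm2a (-0.67), Gldn (-0.66), Ccdc9 (-0.65), Add1 (-0.63) and Cpxm2 (-0.62). Gm2a, the activator protein of lysosomal ganglioside breakdown, had medians of 0, 0.347 and 338 CPM in the 3 classes. Its rho with Atoh1 was -0.46, -0.74 and -0.75 within them. Gldn (gliomedin, an extracellular matrix protein) had -0.58, -0.57 and -0.87 within these classes. It reached 1 CPM in 3 of 11 OHC-like cells and 3 of 16 nascent HCs, so the values there rest mostly on cells at 0. Its highest level, 2643 CPM, was in the last class.

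Highest with Ikzf2 were Scpep1 (0.65), Vamp8 (0.57), Ddr1 (0.57), Prkch (0.55) and 2410131K14Rik (0.55). Scpep1, a serine carboxypeptidase, was at medians of 0, 0.054 and 90.6 CPM in the 3 induced classes and 90.5 CPM in WT_P60 SCs. Its rho with the WPRE row was 0.44. Ddr1, a collagen receptor, had 0.57 with Ikzf2 and 0.59 with WPRE and was found in all 42 cells. Lowest with Ikzf2 were Hacd1 (-0.67), Sos2 (-0.63), Ank (-0.63), Camk2g (-0.63) and Calm2 (-0.62). Calm2, a calmodulin gene, was at medians of 2255, 2533 and 613 CPM in the 3 induced classes and 6609 CPM in WT_P30 OHCs. Its rho with Ikzf2 was -0.71, -0.53 and -0.46 within the 3 induced classes, -0.63 with WPRE in place of Ikzf2 and -0.47 given the number of genes at 1 CPM. Hacd1, an enzyme of very long fatty acid synthesis, had -0.67 with Ikzf2 and -0.71 with WPRE.

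Markers of other cell types were sparse. The macrophage markers C1qa, C1qb and Cx3cr1 had no count in any induced cell. Both blood markers had counts, with a summed level that reached 2191 CPM in 1 OHC-like cell and 8.67 CPM at most in nascent HCs. Endothelial markers (2 of 2 with counts) reached 22 CPM summed, fibroblast markers (2 of 2) 131 CPM and neuron markers (3 of 3) 957 CPM. Of the Schwann cell markers (3 of 3 with counts) 1, Mbp, passed the filter, with -0.44 with Ikzf2 and 0.28 with Atoh1. The summed Schwann cell level had medians of 60.8, 30.3 and 0.129 CPM in the 3 classes. Its rho was 0.38 with Atoh1 and -0.25 with Ikzf2, and that of the summed fibroblast level -0.38 and -0.024. The part of these markers in the relations above was not tested.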

How the data were processed

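The authors trimmed the reads with Trimmomatic 0.39 after FastQC 0.11.9, aligned them with HISAT2 2.1.0 to mm10 and counted them with HTSeq 0.10.0, as the labels and the study's methods give it. The deposited table holds raw counts per gene for 75 cells, 1 library each, in 55291 gene rows and a WPRE row. The annotation release and the strand setting are not given in the sources used here, so reads of overlapping genes on opposite strands may be shared. Counts were divided by the column sum without the WPRE row and written as CPM. Spearman's rho and Pearson's r of log2(CPM + 1) were computed with numpy 2.4.6 and scipy 1.17.1 over genes at 1 CPM or more in at least 10 of the 42 induced cells. This step was tested on simulated data. Smart-Seq reads carry no molecular identifiers, so depth intervals cover counting error only. No p-values were computed, since the labels name no animals. Other scalings (edgeR 4.0.16, DESeq2 1.42.0), filters, centrings and left-out cells are given in the closing section. Named genes are the members, the lists, and the 5 highest and 5 lowest in rho with each member. Members and lists were chosen with earlier results of these data known. A few further names (the genes shared between the 2 sets of correlations) were chosen after their values were seen.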

Additional observations from a re-analysis of the deposited data

How the results depend on the processing

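No paired analysis was possible because no result comes from a test and the cells carry no shared replicate numbers that tie them together. Of 157 recomputed values with another setting, 136 moved by less than a set limit. The limit was the SD between cells (level differences), the SD between classes (correlations) or 1.5 times (numbers of genes). For level differences that SD was wider than every difference itself. All of them stayed within it, so the count does not show that they were steady. With each run's mean taken off, OHC-like cells minus the last class went from 0.34 to -0.16 for Atoh1. For Ikzf2 it went from -0.71 to 0.0020. The correlations past 0.4, Ikzf2 with hair cell genes and Atoh1 with SC genes, kept their sign. With each run's mean taken off, rho of Atoh1 with hair cell genes was -0.068. The rank correlation of Ikzf2 with SC genes was 0.065 with class means taken off, 0.0066 with run means, -0.038 with both and 0.021 over OHC-like cells and nascent HCs alone. The number of genes positive with Atoh1 (183) was 111 with class means taken off, 72 with run means, 80 with both, 299 given the number of genes at 1 CPM and 307 over the HC classes alone, and 141 to 298 with each cell left out in turn. The number positive with Ikzf2 (78) was 157 with DESeq2 size factors, 133 without the 3 cells under 5000 genes, 23 with class means taken off, 35 with run means, 43 with both, 118 with no filter on low values and 29 with the WPRE row in its place, and 63 to 124 with each cell left out. The number negative with Ikzf2 (476) was 205 with class means taken off, 270 with run means, 274 with both and 80 given the number of genes. Leaving out any single cell kept rho of Ikzf2 with hair cell genes between -0.59 and -0.48 and that of Atoh1 with SC genes between -0.50 and -0.38. Taking off class and run means together, leaving out the 2 farthest cells, the HC classes alone and the WPRE row were chosen after seeing the data. The cause of these shifts was not tested. Counts do not separate transgene from endogenous RNA, cells of a class may share an animal, and class and run overlap.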
